A study of Mus musculus with 20 samples.

Results

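The transcription factor p53 and 9 of its direct target genes were followed in mouse kidney after daily dosing with puberulic acid. The 10 genes were chosen by symbol: Trp53, which encodes p53, and Mdm2, Ccng1, Trp53inp1, Phlda3, Eda2r, Zmat3, Aen, Plk2 and Sesn1. Each symbol matched 1 row of the 55822 genes in the table of estimated counts, and all 10 passed the filter on low counts, as did 16266 genes in all. The filter asks for about 10 counts in at least 5 libraries, and 9 of the 10 genes met it in both groups, while Eda2r met it through the treated group alone and so had to differ. Poly(A) RNA of whole kidney was sequenced from male C57BL/6J mice, 8 weeks old, with no genetic change named. The control group (n = 5) received phosphate-buffered saline (PBS) and the puberulic acid group (n = 5) received 1 mg of the compound a day. Both had 6 daily administrations and a drug-free day before the kidneys were taken on day 7. The route is given as oral in one label and as gavage or intraperitoneal injection in another. Puberulic acid is a tropolone made by some Penicillium moulds. The 2 lots of the supplement Choleste-Help in the same series are not analysed here. Since the labels number the samples without saying that each is a separate animal, p-values measure the spread between these samples.

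In unstressed cells p53 is made and destroyed continuously, because the ubiquitin ligase Mdm2 marks it for the proteasome. DNA damage and other stresses break that contact, p53 accumulates, and it binds pairs of a conserved decamer near its target genes. Mdm2 is itself a target, which closes a negative feedback loop, while other targets halt the cell cycle, favour cell death or restrain growth signalling. In the kidney the pathway is best known from tubule cells injured by toxicants or lack of blood flow. Since p53 is controlled mainly through protein stability, RNA levels of its targets and of Trp53 itself need not move together.

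Total estimated counts ran from 18409877 to 22725274 in the control libraries and from 19897287 to 24705587 with puberulic acid. Markers of the labelled tissue were present in both groups. Umod, a gene of the thick ascending limb, was at 2208 to 4050 CPM (counts scaled to a common library size) in controls. In treated libraries it was at 2765 to 4719 CPM. Slc12a1, of the same segment, was lower with the compound, averaging 721.9 CPM in controls and 313.9 CPM in treated libraries, with overlapping ranges. The 7 proximal tubule markers all fell, and their sum ranged from 11745 to 14927 CPM without the compound and from 910.1 to 1676 CPM with it. In a bulk sample, fewer cells of a type and less RNA per cell cannot be told apart. Mitochondrially encoded genes took 18.8 to 22.2% of counts in controls and 10.5 to 13.8% with puberulic acid. The part of this difference in the results was not tested. A fit without these genes again called 9 of the 10 genes higher and 1 lower. Of all 16293 genes it tested, 5559 were higher and 5060 lower. Of the puberulic acid libraries, 3 stood apart. Replicate 1 had the highest proximal tubule sum, 1676 CPM against 910.1 to 1045 CPM in the other 4. Replicate 3 held adrenal transcripts summing to 49.3 CPM against at most 3.28 CPM in the other 4, and fat cell transcripts summing to 70.2 CPM against at most 6.13 CPM. Replicate 5 had the lowest mitochondrial share, 10.5% against 13.2 to 13.8%, and the highest scaling factor. Results are therefore also given without these libraries.

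Of the 9 genes that met the filter in both groups, all except Sesn1 rose with puberulic acid. With Eda2r included, 9 of the 10 were called higher and 1 lower by edgeR's quasi-likelihood test at a Benjamini-Hochberg adjusted p under 0.05, taken over all 16266 genes. The response of this kidney was broad: 65.3% of all genes tested were called, 34.2% higher and 31.1% lower. The CPM ranges of the groups were apart for each of the 9 genes that met the filter in both groups. Eda2r was also apart and is left out of this count. Ranges were apart for 50.1% of all genes tested, which include genes that met the filter through 1 group alone. Among the 13569 genes that met the filter in both groups, 30.4% were called higher and 34.9% lower, against 8 and 1 of these 9. The median log2 fold change was 1.22 over the 9, 1.37 over the 10 and 0.05 over all genes tested. From the largest rise to the smallest, the order was Eda2r, Plk2, Phlda3, Mdm2, Trp53inp1, Zmat3, Aen, Trp53 and Ccng1.

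The sequences in front of the genes are shown for Trp53, Mdm2, Ccng1 and Aen, which have a RefSeq promoter window that holds the p53 consensus decamer. For Sesn1 the decamer alone is given. That decamer is a run of purines, a C, a pair of A or T bases, a G and a run of pyrimidines, and it reads the same on both strands. A window of 300 bases, from 250 before to 50 after the transcript start, was found for 8 of the 10 genes. An exact decamer was present in at least 1 window of 5 genes: Trp53, Mdm2, Ccng1, Aen and Sesn1. Counted by window, 6 of the 10 windows of the members held one, beside 8.36% of all 32841 promoter windows. The Aen windows overlap and share the same decamer, and 1 of them is shown. No window of the members held a pair of exact decamers separated by at most 13 bases, and 0.0731% of all windows did. Decamers with a mismatch were not searched for, so the windows may hold pairs in which a decamer is inexact. A match is a description of letters, and p53 sites outside these windows were not searched. In the windows below, from RefSeq on GRCm38.p6, the decamer is in capitals and each sequence runs 5′ to 3′ on the strand of its gene.
Trp53, chr11:69580109-69580408, plus strand: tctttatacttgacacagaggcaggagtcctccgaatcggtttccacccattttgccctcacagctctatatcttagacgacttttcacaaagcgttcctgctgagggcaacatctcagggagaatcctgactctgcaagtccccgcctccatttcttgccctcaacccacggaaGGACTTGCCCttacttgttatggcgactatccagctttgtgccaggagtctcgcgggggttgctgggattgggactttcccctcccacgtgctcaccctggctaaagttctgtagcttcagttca
Mdm2, chr10:117710709-117711008, minus strand: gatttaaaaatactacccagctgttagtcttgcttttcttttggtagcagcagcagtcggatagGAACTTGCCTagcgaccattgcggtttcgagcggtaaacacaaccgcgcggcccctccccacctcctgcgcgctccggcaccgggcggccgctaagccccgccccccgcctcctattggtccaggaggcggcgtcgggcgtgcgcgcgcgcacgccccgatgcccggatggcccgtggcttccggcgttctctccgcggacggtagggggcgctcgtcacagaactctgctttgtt
Ccng1, chr11:40755237-40755536, minus strand: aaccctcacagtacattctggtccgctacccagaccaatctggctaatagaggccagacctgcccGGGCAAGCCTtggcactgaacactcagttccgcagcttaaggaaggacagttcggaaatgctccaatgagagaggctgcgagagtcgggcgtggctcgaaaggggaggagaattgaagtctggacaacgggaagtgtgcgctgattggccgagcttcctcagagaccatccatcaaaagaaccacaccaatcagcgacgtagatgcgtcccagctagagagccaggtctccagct
Aen, chr7:78895677-78895976, plus strand: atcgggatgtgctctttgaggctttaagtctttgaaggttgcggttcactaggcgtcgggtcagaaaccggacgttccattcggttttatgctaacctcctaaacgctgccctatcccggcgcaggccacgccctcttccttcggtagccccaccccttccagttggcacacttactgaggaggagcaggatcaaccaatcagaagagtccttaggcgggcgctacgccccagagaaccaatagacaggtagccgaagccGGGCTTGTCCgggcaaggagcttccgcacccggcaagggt
In the Sesn1 window at chr10:41887189-41887488, on the plus strand, the decamer was AAGCTTGTTT. Sesn1 carried a decamer and fell, while Plk2, Phlda3 and Eda2r, with the largest rises, had no exact decamer in their windows. Zmat3 and Trp53inp1 were not searched.

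Trp53 (ENSMUSG00000059552), the factor itself, was at 25.8, 25.7, 30.7, 30.4 and 30.3 CPM in control replicates 1 to 5. In puberulic acid replicates 1 to 5 it was at 51.7, 56.2, 52.7, 62.1 and 59.5 CPM. Every treated library lay above every control, and Trp53 rose 1.98-fold, or by 0.98 ± 0.09 on the log2 scale (SE, adjusted p = 1.63e-06). Its processed pseudogene, Trp53-ps, had 0 counts in all 10 libraries. Wrap53, the neighbour transcribed away from Trp53, averaged 12.8 ± 1.44 CPM without and 12.5 ± 1.38 CPM with the compound (SD, n = 5). It did not pass the test, with a log2 change of -0.03 ± 0.12 (SE, adjusted p = 0.824). With total-count scaling Wrap53 was higher by 0.47 (adjusted p = 0.00362), and its adjusted p ran from 0.00362 to 0.953 over the alternatives.

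Mdm2 (ENSMUSG00000020184), the ligase that opposes p53, was nearly level among controls, at 37.1, 36.0, 36.5, 36.0 and 37.5 CPM. With puberulic acid it was at 89.9, 115.3, 107.8, 106.6 and 105.3 CPM. Replicate 1 was the lowest of the treated libraries and still above every control. Mdm2 rose 2.87-fold, or by 1.52 ± 0.08 on the log2 scale (SE, adjusted p = 2.91e-08). Because library scaling divides out of a ratio taken inside a library, Mdm2 was also set against Trp53. There were 1.44, 1.40, 1.19, 1.18 and 1.24 Mdm2 counts per Trp53 count in control replicates 1 to 5. The treated libraries had 1.74, 2.05, 2.05, 1.72 and 1.77. All treated ratios exceeded all control ratios. The mean log2 ratio was 0.36 ± 0.13 in controls and 0.89 ± 0.13 with puberulic acid (SD, n = 5), a difference of 0.53 (p = 0.00794 by an exact two-sided permutation test, which can give no smaller value with 5 against 5). So Mdm2 RNA rose 1.45-fold more than Trp53 RNA.

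Ccng1 (ENSMUSG00000020326) encodes cyclin G1, which brings protein phosphatase 2A to Mdm2. It had the smallest rise of the 9, with controls at 261.9, 239.0, 193.9, 226.8 and 189.3 CPM. Treated libraries were at 280.9, 281.8, 277.2, 270.4 and 265.7 CPM, a narrower range than the controls. The highest control lay just under the lowest treated library. The log2 fold change was 0.31 ± 0.10 (SE, adjusted p = 0.0146). Of the 10 libraries left out singly, control replicate 3 ended this call, with a log2 fold change of 0.25 and an adjusted p of 0.0507. With puberulic acid replicates 1 and 3 left out together they were 0.26 and 0.0804. The adjusted p ran from 9.42e-06 to 0.0804 over the alternatives.

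Trp53inp1 (ENSMUSG00000028211), whose nuclear protein works with p53 in cell death and autophagy, ranged from 25.9 to 30.4 CPM in controls. Treated replicates 1 to 5 had 64.0, 94.7, 94.2, 71.1 and 76.3 CPM. The treated libraries spread widely, yet all lay above the controls. The log2 fold change, 1.52 ± 0.12 (SE, adjusted p = 6.15e-07), was close to that of Mdm2.

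**Figure D1:**
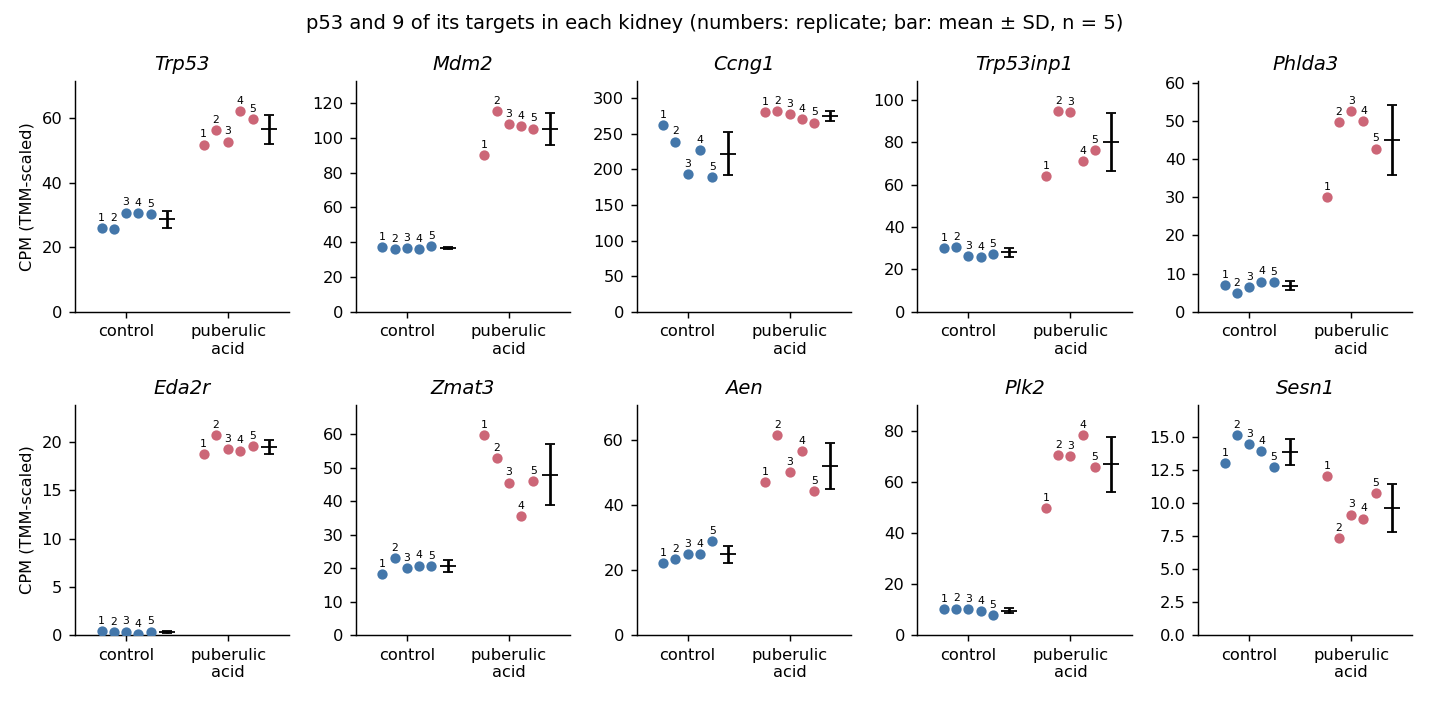
CPM of p53 and 9 targets in each library, scaled by the trimmed mean of M-values (TMM), with control in blue and puberulic acid in red. Small digits give the replicate, and the black bar beside each group is its mean ± SD (n = 5). The groups are apart in every panel, narrowly for Ccng1 and Sesn1.

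Eda2r (ENSMUSG00000034457), a receptor of the tumour necrosis factor family that binds a form of ectodysplasin, was near the detection limit in controls, with 8, 6, 6, 2 and 6 counts. The treated libraries had 505, 486, 453, 468 and 609 counts. In CPM this was 0.334 ± 0.127 against 19.5 ± 0.757 (SD, n = 5). The fitted difference was 57.2-fold, or 5.84 ± 0.21 on the log2 scale (SE). It is given as a description, since none of the controls reached the count the filter asks for. The size of that fold leans on 2 to 8 control counts a library, where 3 counts correspond to 0.158 to 0.195 CPM. Eda, which encodes the ectodysplasin ligands, did not pass the test (adjusted p = 0.725, from 0.0497 to 0.998 over its alternatives) and differed by 0.11 on the log2 scale.

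Phlda3 (ENSMUSG00000041801), a small lipid-binding protein that competes with the survival kinase Akt at the membrane, was at 6.90, 4.96, 6.43, 7.91 and 7.73 CPM in controls. With puberulic acid it was at 30.1, 49.7, 52.6, 49.9 and 42.8 CPM. Replicate 1 was again the lowest treated library. Phlda3 rose 6.64-fold, or by 2.73 ± 0.18 on the log2 scale (SE, adjusted p = 1.37e-07).

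Aen (ENSMUSG00000030609) encodes a nuclease that promotes apoptosis. It ranged from 22.1 to 29.1 CPM in control libraries and from 44.3 to 61.6 CPM in treated ones, and the log2 fold change was 1.06 ± 0.11 (SE, adjusted p = 5.27e-06). Zmat3 (ENSMUSG00000027663) encodes a zinc finger protein that binds RNA and affects splicing. Control libraries held it at 18.2 to 23.1 CPM. Treated replicates 1 to 5 were at 59.9, 52.9, 45.6, 35.7 and 46.0 CPM, so here replicate 1 was the highest. The log2 fold change was 1.22 ± 0.13 (SE, adjusted p = 6.52e-06).

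Plk2 (ENSMUSG00000021701), a polo-like kinase with a role in centriole duplication and stress responses, was at 10.3, 10.5, 10.2, 9.60 and 8.05 CPM in controls. The treated libraries were at 49.7, 70.8, 70.2, 78.6 and 65.8 CPM. Its log2 fold change, 2.78 ± 0.13 (SE, adjusted p = 1.66e-08), or 6.87-fold, was second to that of Eda2r, and its interval of 2.49 to 3.07 overlapped that of Phlda3, 2.35 to 3.12.

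Sesn1 (ENSMUSG00000038332), a sestrin that restrains the growth kinase complex mTORC1 when amino acids are scarce, was the exception. Control replicates 1 to 5 were at 13.1, 15.2, 14.5, 14.0 and 12.7 CPM. With puberulic acid the values were 12.1, 7.37, 9.15, 8.84 and 10.8 CPM. The treated libraries were lower, with replicate 1 nearest to the controls. The log2 fold change was -0.53 ± 0.14 (SE, adjusted p = 0.00539), with a 95% interval from -0.83 to -0.22. Of its paralogs, Sesn3 was called higher, with a log2 fold change of 1.17, and Sesn2 was not called, at 0.18 (adjusted p = 0.166, from 0.000145 to 0.368 over its alternatives).

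How libraries were scaled moved all these values together. The TMM factor of a control library was at most 0.848, and that of a treated library at least 1.17. Scaling to total counts moved the median log2 fold change of all genes from 0.05 to 0.56, and turned 5564 genes higher and 5058 lower into 9179 and 2526. The members then counted 9 higher and 0 lower. Sesn1 stood at -0.02 on the log2 scale (adjusted p = 0.932) and lost its call, while its adjusted p ran from 0.000655 to 0.932 over all alternatives. Ccng1 went to 0.82. Relative to the median gene, Sesn1 stayed below and the other 9 above under both scalings.

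**Figure D2:**
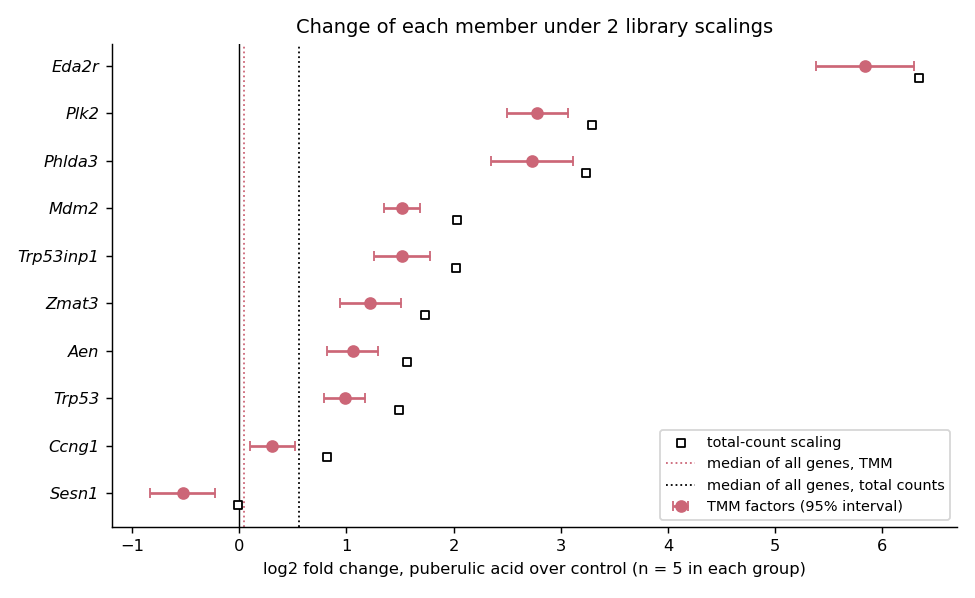
Log2 fold change of each gene with TMM factors (red points, bars 95% interval, n = 5 in each group) and with total-count scaling (open squares). Dotted lines mark the median of all genes tested under each scaling, 0.05 and 0.56, and Sesn1 alone lies to the left of the median in both cases.

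Set against Trp53 in the same library, the targets fell into 3 kinds, given here as a description. Phlda3, Plk2, Eda2r and Mdm2 had higher ratios in every treated library than in any control, with mean log2 differences of 1.73, 1.79, 4.86 and 0.53. Ccng1 and Sesn1 had lower ratios in every treated library, with differences of -0.66 and -1.53. For Trp53inp1, Zmat3 and Aen the ranges overlapped, with differences of 0.52, 0.22 and 0.07. Zmat3, for example, had 0.652 to 0.900 counts per Trp53 count in controls and 0.574 to 1.16 in the treated libraries. For Sesn1 the ratio was 0.421 to 0.591 in controls and 0.131 to 0.233 in treated libraries.

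**Figure D3:**
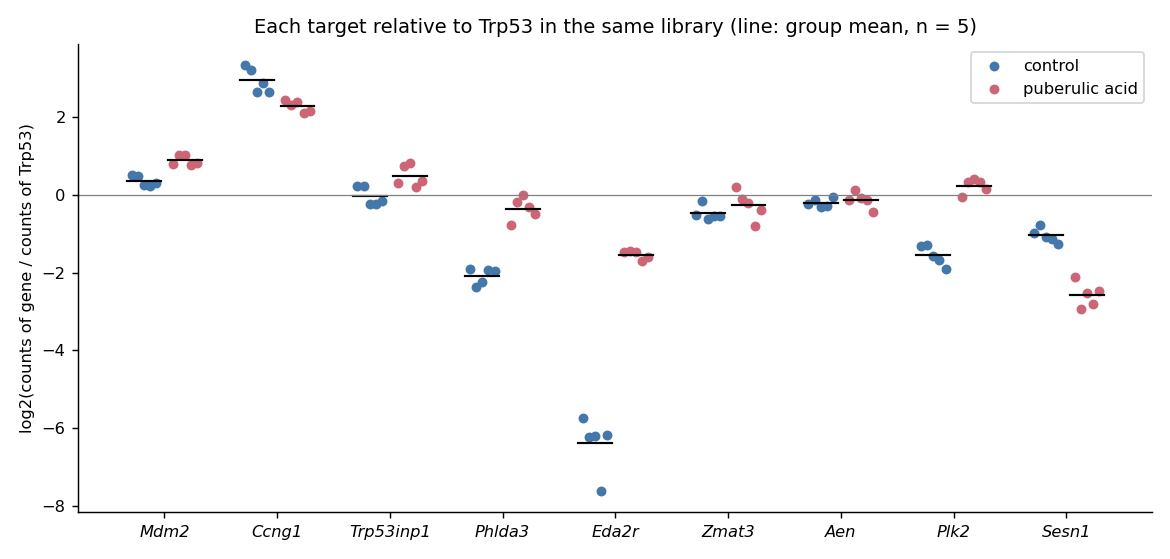
Log2 ratio of each target's counts to Trp53 counts in the same library, with control in blue, puberulic acid in red and a line at each group mean (n = 5). Comparing colours within a gene shows ratios that are higher (Mdm2, Phlda3, Eda2r, Plk2), lower (Ccng1, Sesn1) or overlapping, and heights of different genes are not comparable because gene length is not corrected.

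Among the treated libraries the members did not all vary in step. Replicate 1, with the most proximal tubule RNA, was the lowest of the 5 for 6 genes (Trp53, Mdm2, Trp53inp1, Phlda3, Eda2r and Plk2) and the highest for Zmat3 and Sesn1. Without it, log2 fold changes were 1.55 for Mdm2, 2.82 for Phlda3, 2.85 for Plk2, 1.11 for Zmat3 and -0.64 for Sesn1. Leaving out replicate 3, which held adrenal and fat transcripts, gave 1.499 for Mdm2, 2.66 for Phlda3, 2.75 for Plk2, 1.23 for Zmat3 and -0.52 for Sesn1. With both left out, 8 of the 10 genes were called higher and 1 lower, Ccng1 being the one lost. Of all 16807 genes tested in that fit, 5289 were higher and 5189 lower. Without replicate 5 the counts were 9 and 1, beside 5103 and 5001 of all 16411 genes tested. Log2 fold changes were then 1.49 for Mdm2, 2.72 for Phlda3, 2.76 for Plk2, 1.21 for Zmat3 and -0.60 for Sesn1. Eda2r was nearly level across treated libraries, at 18.7 to 20.7 CPM.

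Markers of other cells are read beside the 34.2% of all genes tested that were called higher and the 31.1% called lower. Of 11 leukocyte markers, 7 were tested and 3 (Ptprc, Cd68 and Itgam) rose. The neutrophil gene Ly6g was at 0 counts in all 10 libraries, while S100a8, also a gene of neutrophils, had 1 to 14 counts. Neither was tested. The sum of the 11 leukocyte markers was 61.7 to 107.7 CPM without the compound and 108.8 to 240.1 CPM with it. Of 5 stromal markers 4 rose, with sums of 92.6 to 151.3 CPM and 323.2 to 1056 CPM. Of 8 markers of other nephron segments 5 fell (Nphs1, Slc12a1, Slc12a3, Aqp2 and Atp6v1b1), and of 5 endothelial markers 1 fell. The part of these cells in the changes of the p53 genes was not tested.

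Of 44 further p53 targets in 4 lists by role, 43 were tested, and 27 (62.8%) rose and 9 (20.9%) fell, beside 34.2% and 31.1% of all genes tested. Total-count scaling made this 33 higher and 3 lower, when 9179 genes of all were higher and 2526 lower. These targets had a median log2 fold change of 0.72 against 0.05 for all genes tested. Without the 5 targets that met the filter through the treated group alone, 22 of 38 were higher and 9 lower, with a median of 0.54. All 9 cycle arrest targets were called higher, with a median of 3.74, and the 5 of them that met the filter in both groups had a median of 2.43. Cdkn1a, whose protein p21 blocks cyclin-dependent kinases, ranged from 3.37 to 7.01 CPM in the control libraries and from 246.04 to 384.3 CPM in the treated ones, a log2 fold change of 6.22. Gtse1 and Ckap2, which are also expressed in dividing cells, followed with 4.21 and 3.96, as a description, since both met the filter through the treated group alone.

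Of 10 cell death targets, 6 rose and 1 fell, beside 34.2% higher and 31.1% lower of all genes tested. The death receptor gene Tnfrsf10b rose by 3.07 on the log2 scale, from 1.96 ± 0.431 to 16.4 ± 2.38 CPM (SD, n = 5). Bbc3 and Pmaip1, which encode the BH3-only proteins Puma and Noxa, rose by 2.82 and 2.14. Bax, which encodes the pore-forming effector, rose by 0.52 (adjusted p = 0.000412), from 42.0 ± 3.44 to 60.4 ± 6.55 CPM (SD, n = 5). Ei24 fell by 0.56, a call that total-count scaling removed, and Fas had a log2 fold change of -0.52 that did not pass the test (adjusted p = 0.0551, from 0.0266 to 0.990 over its alternatives).

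Of the 19 tested targets acting in metabolism and growth, 10 (52.6%) were higher and 5 (26.3%) lower, beside 34.2% and 31.1% of all genes tested. Among those called higher, Zfp365 met the filter through the treated group alone. Total-count scaling made the counts 14 higher and 3 lower, when 9179 of all 16266 genes tested were higher and 2526 lower. Gdf15, a secreted stress hormone, had the largest rise, 3.39 on the log2 scale, from 8.03 ± 1.26 to 84.4 ± 25.7 CPM (SD, n = 5). Rap2b, a small GTPase, rose by 2.44 and Ddit4l, an inhibitor of mTOR signalling, by 1.85. Dcxr, an enzyme of sugar metabolism, fell by 2.48, Tsc2, which restrains mTORC1, by 0.90 and the antioxidant enzyme gene Gpx1 by 0.87. Among 5 DNA repair targets, 2 rose (the polymerase gene Polk by 0.72 and the nuclease gene Ercc5 by 0.55) and 3 fell. The 3 were Rrm2b, a ribonucleotide reductase subunit, by 0.60, and the damage recognition genes Ddb2 by 0.41 and Xpc by 0.33. With total-count scaling none of these 3 was called, and Ddb2 and Xpc changed sign to 0.10 and 0.18. The Ddb2 call was also lost in 9 other alternatives.

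Of 24 regulators upstream of p53 that were tested, 11 (45.8%) were called higher and 7 (29.2%) lower, beside 34.2% and 31.1% of all genes tested, so that the share lower is near that of all genes. The counts were 18 and 2 with total-count scaling, when 9179 of all 16266 genes tested were higher and 2526 lower. The count lower was 4 without control replicate 2, control replicate 4 or puberulic acid replicate 3. The checkpoint kinase gene Chek1 met the filter through the treated group alone, with 0.631 ± 0.187 CPM without and 6.61 ± 1.44 CPM with the compound (SD, n = 5), a log2 difference of 3.37 given as a description. Without Chek1, 10 of 23 were higher. Hipk2, a kinase that phosphorylates p53, rose by 1.47, and Ppp1r13l, whose product iASPP inhibits p53, by 1.34. The DNA damage kinase genes Prkdc and Atr fell by 0.80 and 0.60. Atm, of the same kinase family, was called higher, from 5.52 ± 1.69 to 9.47 ± 3.77 CPM (SD, n = 5), with 0.78 on the log2 scale (adjusted p = 0.0292, from 0.00126 to 0.299 over its alternatives). That call was lost when control replicate 3, 4 or 5 or puberulic acid replicate 1 or 3 was left out, at 0.71, 0.69, 0.66, 0.50 and 0.72, and was at 0.32 without the last pair together. Trp53bp2, whose product ASPP2 promotes p53-driven cell death, fell by 0.74. The call of Atr was lost with total-count scaling (adjusted p = 0.671, from 0.00215 to 0.671 over its alternatives). Mdm4, the partner of Mdm2 in holding p53 inactive, averaged 40.3 ± 6.19 CPM without and 37.2 ± 4.52 CPM with the compound (SD, n = 5). Its log2 change of -0.12 ± 0.12 (SE, adjusted p = 0.417) did not pass the test. Its sign depended on the scaling, since total counts gave 0.39 (adjusted p = 0.0104), and the adjusted p ran from 0.0104 to 0.896 over the alternatives.

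**Figure D4:**
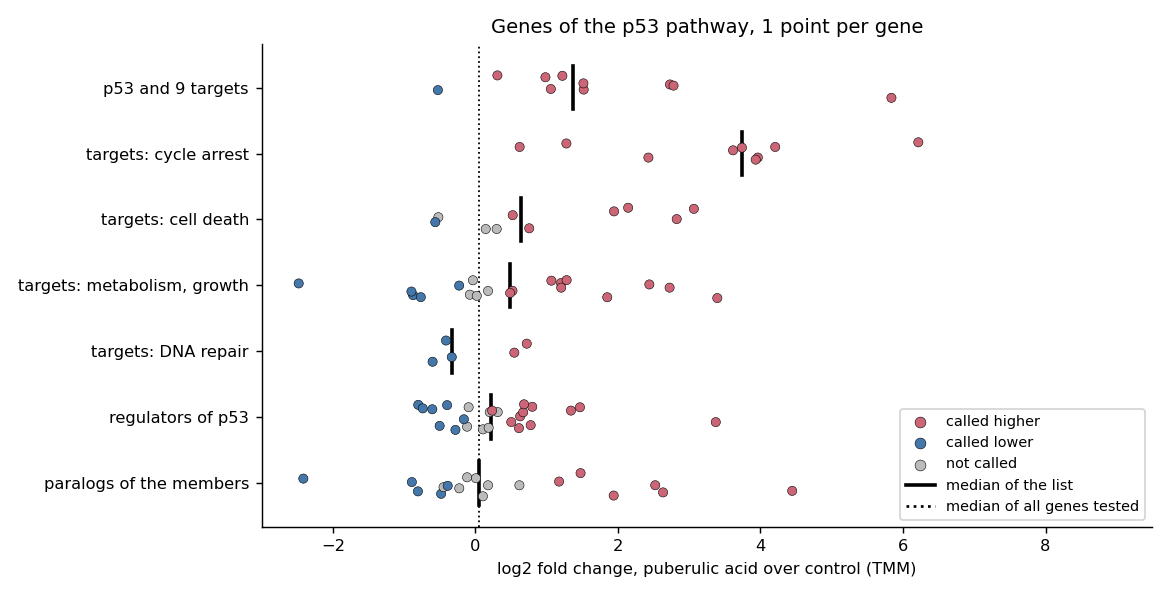
Log2 fold change of each gene tested in 7 lists of the p53 pathway (TMM scaling), coloured by call at an adjusted p under 0.05, with a bar at each list's median. The cycle arrest targets are all called higher with a median of 3.74, 4 of the 9 having met the filter through the treated group alone, while the regulators (median 0.22) and paralogs (median 0.06) lie on both sides of the dotted median of all genes, 0.05.

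Of 20 paralogs of the 10 genes, 18 were tested (Mdm4 and Sesn2 also stand in the lists above). Of these, 6 (33.3%) rose and 5 (27.8%) fell, near the 34.2% and 31.1% of all genes tested. Total-count scaling made the counts 11 higher and 2 lower, when 9179 of all 16266 genes tested were higher and 2526 lower. With TMM factors, 5 of the 15 that met the filter in both groups rose and 4 fell. Plk1, the mitotic relative of Plk2, met it through the treated group alone, with 0.726 ± 0.265 CPM without and 15.8 ± 6.03 CPM with the compound (SD, n = 5). Phlda1 rose by 2.63, close to Phlda3, while Phlda2 had a log2 fold change of -0.48 that was 0.02 with total counts. Isg20, an exonuclease relative of Aen, rose by 2.52. The Zmat3 relatives Zmat5 and Zmat2 fell by 0.89 and 0.39, and Zmat2 was at 0.12 with total counts. Trp63, from the p53 family, was not called, at 0.62 on the log2 scale (adjusted p = 0.199, from 0.0267 to 0.453 over its alternatives), and Trp73 had at most 2 counts in any library.

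Across the 10 libraries, the profiles nearest to that of Trp53 among named genes belonged to Syncrip, Rela and Tmem98. Their centred log2(CPM + 1) values differed from those of Trp53 by a root mean square of 0.0857, 0.0875 and 0.0882. Such nearness was common, since 632 genes lay within 0.2. The named genes nearest to Mdm2, after 1 gene without an ordinary symbol was passed over, were Arf2, Pdgfa and Sdad1, at 0.0692, 0.0890 and 0.0891, with 216 genes within 0.2. The measure is dominated by the difference between the groups.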

How the data were processed

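Per the labels' protocols, libraries were made by poly(A) selection with a directional kit. The authors deposited a table of estimated counts for each gene, with decimals and no stated normalization. The submitters' processing notes name fastp 0.22.0, FastQC 0.12.1, MultiQC 1.28, Salmon 1.10.3, DESeq2 and the build GRCm39, with no role for each, and the annotation is not given in the sources used here. Salmon divides reads shared by similar genes by a model, so values of near-identical copies are uncertain. Columns were tied to samples by name. The names of 10 further sample columns do not show which group they hold, and these were not used.

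Estimated counts were rounded. Ensembl identifiers without version suffix were matched to symbols for 51344 of 55822 genes. Genes were filtered with filterByExpr, scaled with TMM factors and tested with edgeR 4.0.16 (glmQLFit, glmQLFTest, limma 3.58.1, R 4.3.3) on the 5 control and 5 puberulic acid samples, with no covariate. Benjamini-Hochberg adjustment covered 16266 genes, and an adjusted p under 0.05 was called. SE was taken from the fold change and the F statistic. CPM uses TMM-scaled library sizes of the genes kept. The fit was tested on simulated data in which few genes changed, as many raised as lowered. That test did not cover a response as broad as the one here. For the ratio, 0.5 was added to each count, and exact permutation used scipy 1.17.1. Intervals and the floor of 3 counts cover sampling only. Same-numbered samples were not treated as pairs.

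The 10 members and all gene lists were chosen with earlier results of these data known. Named were all members; in each list the 3 called genes with the largest change in each direction and a mean of at least 1 CPM; Cdkn1a, Bax, Bbc3, Gdf15, Mdm4 and Wrap53; and for Trp53 and Mdm2 the 3 nearest named genes. Atm, Eda, Fas, Sesn2, Sesn3, Trp63, Trp73 and Zfp365 were added after their values were seen. The closing part gives the alternatives: other scaling factors, other filters, DESeq2 1.42.0, a robust fit, no mitochondrially encoded genes, a replicate block, each sample left out, and, added after the data were seen, puberulic acid replicates 1 and 3 left out together.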

Additional observations from a re-analysis of the deposited data

Results flagged for a closer look

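The libraries listed here lay apart from the other 4 of their group, by more than 0.71 of the distance between the lowest and the highest value. This was so for 15 of 120 sets of 5 values, and chance gives about 1 in 20. None of the 10 members was among them in either group.

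In puberulic acid replicate 1, Hipk2 was the highest of its group at 57.1 CPM against 33.8 to 38.0 CPM. Dcxr was the highest there at 56.0 CPM against 29.6 to 35.4 CPM, as was the proximal tubule sum at 1676 CPM against 910.1 to 1045 CPM. Puberulic acid replicate 3 had the highest adrenal sum, 49.3 CPM against 1.41 to 3.28 CPM, and the highest adipose sum, 70.2 CPM against 3.53 to 6.13 CPM. Puberulic acid replicate 5 had the highest TMM factor, 1.26 against 1.17 to 1.18, and the lowest mitochondrial share of counts, 10.5% against 13.2 to 13.8%. Zmat2 was lowest in puberulic acid replicate 2, at 44.8 CPM against 51.4 to 52.0 CPM.

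Among controls, replicate 1 had the lowest Trp53bp2, 79.7 CPM against 94.3 to 97.3 CPM, and the lowest Dcxr, 163.7 CPM against 207.4 to 223.6 CPM. It also had the highest Polk, 10.1 CPM against 8.16 to 8.65 CPM. Control replicate 5 had the highest Cdkn1a, 7.01 CPM against 3.37 to 4.39 CPM, and the highest Pmaip1, 16.8 CPM against 6.33 to 8.66 CPM, and the lowest Phlda2, 11.8 CPM against 17.6 to 19.1 CPM. Rap2b was lowest in control replicate 3, at 2.80 CPM against 4.32 to 4.79 CPM.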

How the results depend on the processing

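Over 20 alternatives each, 8 of the 10 members kept their direction and their side of the threshold. Ccng1 was called in 18 and Sesn1 in 19. Members called higher numbered 8 or 9 with 1 library left out, and 1 was lower each time. Of all genes tested in those fits, 5103 to 5842 were higher and 4881 to 5395 lower. The labels join samples across groups by number alone, and deviations of same-numbered samples had correlations from -0.172 to 0.039. The replicate block changed no call of a member. For the ratio of Mdm2 to Trp53, pairing by number left the difference at 0.53 with an exact sign-flip p of 0.0625, the smallest that 5 pairs allow. Leaving out 1 library gave differences of 0.50 to 0.57.

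Total-count scaling gave 0 members lower, 18 regulators higher and 2 lower, 0 cell death, 0 DNA repair and 3 metabolism and growth targets lower, 3 of all further targets lower, 11 paralogs higher and 2 lower, and 9179 genes higher and 2526 lower overall. It raises nearly every fold change by a similar amount. Upper-quartile factors gave 4 regulators and 1 DNA repair target lower. Median-of-ratios (RLE) factors and DESeq2 each gave 2 cell death targets lower, against 1. The filter of 1 CPM left 3 paralogs lower. With 1 library left out, 4 to 7 regulators and 1 or 2 cell death targets were lower.

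Signs turned with total counts for Ddb2 (0.10), Xpc (0.18), Phlda2 (0.024), Zmat2 (0.12), Mdm4 (0.39) and Wrap53 (0.47), and with upper-quartile factors for Wrap53 (0.064). Eda ran from -0.064 to 0.198 with 1 library left out, and Atm lost its call in 6 alternatives. Ddb2 lost its call in 9 further alternatives, the replicate block among them (-0.40, adjusted p = 0.095). With that block 5416 genes were higher and 4909 lower. Depth limits Eda2r in controls, at 2 to 8 counts a library.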
